A study of Homo sapiens with 6 samples.

Results

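Genes of the BCL2 family, which set the threshold of mitochondrial apoptosis, were followed in HepG2 cells treated with GDF11. The 10 members were chosen by symbol, and each matched 1 of the 60240 Ensembl genes in the deposited table. They comprise 5 BH3-only genes (BCL2L11, which encodes BIM, BMF, PMAIP1, which encodes NOXA, BBC3, which encodes PUMA, and BIK), 3 pro-survival genes (BCL2, BCL2L1 and MCL1) and 2 effector genes (BAX and BAK1). HepG2 is an established human line from a liver tumour. The 3 GDF11 cultures received 100 ng/ml of recombinant GDF11 protein, a ligand of the TGF-beta family, for 24 h, and the 3 control cultures received none. The labels call the cultures biological replicates, no agent or genetic change other than GDF11 is named, and the sources used here do not say whether controls received a vehicle. RNA was read from whole cultures, so fewer cells of a type and less RNA per cell cannot be told apart.

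BAX and BAK1 form the pores in the outer mitochondrial membrane that release cytochrome c. The pro-survival proteins hold them in check, and BH3-only proteins, which respond to stress and growth factor signals, start death by occupying the pro-survival proteins or by activating BAX and BAK1 directly. In the liver, hepatocyte survival is known to depend on BCL-XL, the main product of BCL2L1, and on MCL1. BIM and BMF have been described as BH3-only proteins that increase during death of epithelial and liver cells under TGF-beta. Much of the control of the family acts on the proteins (phosphorylation, degradation, binding), which RNA does not show, and a value per gene does not separate splice forms such as those of BCL2L1, BCL2L11 and MCL1.

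GDF11-treated cells held 7.72 times as much BMF RNA as controls, by far the largest difference among the members, and 1.75 times as much MCL1 RNA. These were the 2 members that passed the test, or 22.2% of the 9 tested, against 22.4% of all tested genes. The MCL1 call remained in only 1 of the 6 fits that left out 1 library, and not when adjusted for RNA integrity. Another 7 members did not pass, and PMAIP1 was listed at 0 in each library. Control replicate 3 lay close to the GDF11 libraries for BCL2L11, BAX and BAK1, and part of the way for MCL1, but with the other controls for BMF.

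BMF (ENSG00000104081.14) lies on chromosome 15, minus strand, from 40087890 to 40108879 of GRCh38.p14. Since BMF carries the largest difference and BCL2L11 is the other BH3-only gene linked to TGF-beta, the promoters of these genes are shown, from 250 bases before to 50 bases after each RefSeq start. RefSeq promoters (GRCh38.p14) were had for 8 of the 10 members, with 2 starts each for BMF and BCL2L1, MCL1 and BIK being unmatched. Short motifs were searched on both strands: CAGAC, the SMAD box, TGANTCA, for AP-1, and GTAAACA, for FOXO factors. Capitals mark a match on either strand (GTCTG is CAGAC on the other strand). The upstream BMF start is at chr15:40108830-40109129, the downstream BMF start at chr15:40106917-40107216, both on the minus strand, and the BCL2L11 start at chr2:111120664-111120963 on the plus strand.
BMF, upstream start: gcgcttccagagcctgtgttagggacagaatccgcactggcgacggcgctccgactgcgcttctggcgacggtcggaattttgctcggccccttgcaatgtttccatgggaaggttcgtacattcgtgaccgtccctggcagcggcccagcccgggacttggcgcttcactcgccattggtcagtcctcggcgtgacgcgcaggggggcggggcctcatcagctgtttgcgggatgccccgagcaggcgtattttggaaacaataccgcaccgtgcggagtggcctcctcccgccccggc
BMF, downstream start: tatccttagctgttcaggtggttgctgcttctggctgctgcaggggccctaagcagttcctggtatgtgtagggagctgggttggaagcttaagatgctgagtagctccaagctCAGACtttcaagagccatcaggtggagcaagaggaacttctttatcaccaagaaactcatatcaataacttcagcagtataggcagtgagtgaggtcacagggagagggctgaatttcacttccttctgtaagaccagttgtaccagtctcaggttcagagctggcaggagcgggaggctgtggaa
BCL2L11: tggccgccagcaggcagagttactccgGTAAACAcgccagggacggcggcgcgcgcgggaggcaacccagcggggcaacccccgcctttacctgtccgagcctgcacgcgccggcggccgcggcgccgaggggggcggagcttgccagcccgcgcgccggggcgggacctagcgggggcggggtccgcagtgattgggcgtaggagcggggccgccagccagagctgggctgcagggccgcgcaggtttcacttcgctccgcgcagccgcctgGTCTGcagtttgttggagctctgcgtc

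The upstream BMF promoter held none of these motifs. The downstream one held 1 CAGAC, whose first base lies 136 bases before the start. The BCL2L11 promoter held GTAAACA on the plus strand, 223 bases before the start, and GTCTG beginning at base 24 of the transcript. Of all 35116 promoters in the table, 45.3% held CAGAC on either strand, 7.71% TGANTCA and 3.42% GTAAACA. Among the other members, PMAIP1, BBC3, BAK1 and the upstream start of BCL2L1 held 1 CAGAC each, BBC3 also held 1 TGANTCA, and BAX, BCL2 and the downstream start of BCL2L1 held none of the motifs. The motifs are given as letters in a window, and a match is not a measured site.

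Values are log2 on a variance-stabilised scale on which 5.52 means no reads, and were also turned back into reads at a common depth, called normalised reads here. Differences are GDF11 minus control on that log2 scale with limma's standard error. A gene was called when its Benjamini-Hochberg adjusted p, over all 18723 genes tested with limma, was under 0.05. The depth, estimated from the step of 1 read, was 47944060 to 53374595 reads a library. Control replicate 3 stood apart, at -21.6 on the first principal component of the 1000 most variable genes, against -29.9 and -31.8 for control replicates 1 and 2 and 27.3 to 28.6 for the GDF11 libraries. RNA integrity numbers were 9.6, 9.5 and 9.4 in GDF11 replicates 1, 2 and 3, and 9.8, 9.9 and 9.6 in control replicates 1, 2 and 3. They were lower in GDF11 libraries and in control replicate 3 than in the other controls. The number thus ran largely with treatment, so fits adjusted for it cannot tell its part from that of GDF11. All 9 hepatocyte markers were read in each library (ALB 138879.9 to 156638 normalised reads with GDF11, against 238908 to 255399 in controls). The list summed to 1226001 to 1408182 with GDF11, against 1394882 to 2050310 in controls, and these sums overlapped. ALB, AFP, TTR, APOA1, FGB and HNF4A were lower in every GDF11 library than in every control, while APOA2, SERPINA1 and TF overlapped. Of 5 endothelial markers, CLDN5 and TEK were at 0 throughout, VWF and CDH5 were read at low levels in each library, and the list summed to 13.2 to 32.9 normalised reads with GDF11, against 53.1 to 97.3 in controls. Of 6 leukocyte and macrophage markers, PTPRC and CD3E were at 0 throughout, but CD68 (2492 to 2997 normalised reads with GDF11, against 2246 to 3412 in controls) and CD14 (201 to 350 with GDF11, against 337 to 741 in controls) were read in each library, and the list summed to 2805 to 3366 with GDF11, against 2597 to 4181 in controls. Of 6 fibroblast and stellate markers, PDGFRB alone reached 20 reads in each library, and the list summed to 1925 to 2560 normalised reads with GDF11, against 753 to 1477 in controls.

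**Figure D1:**
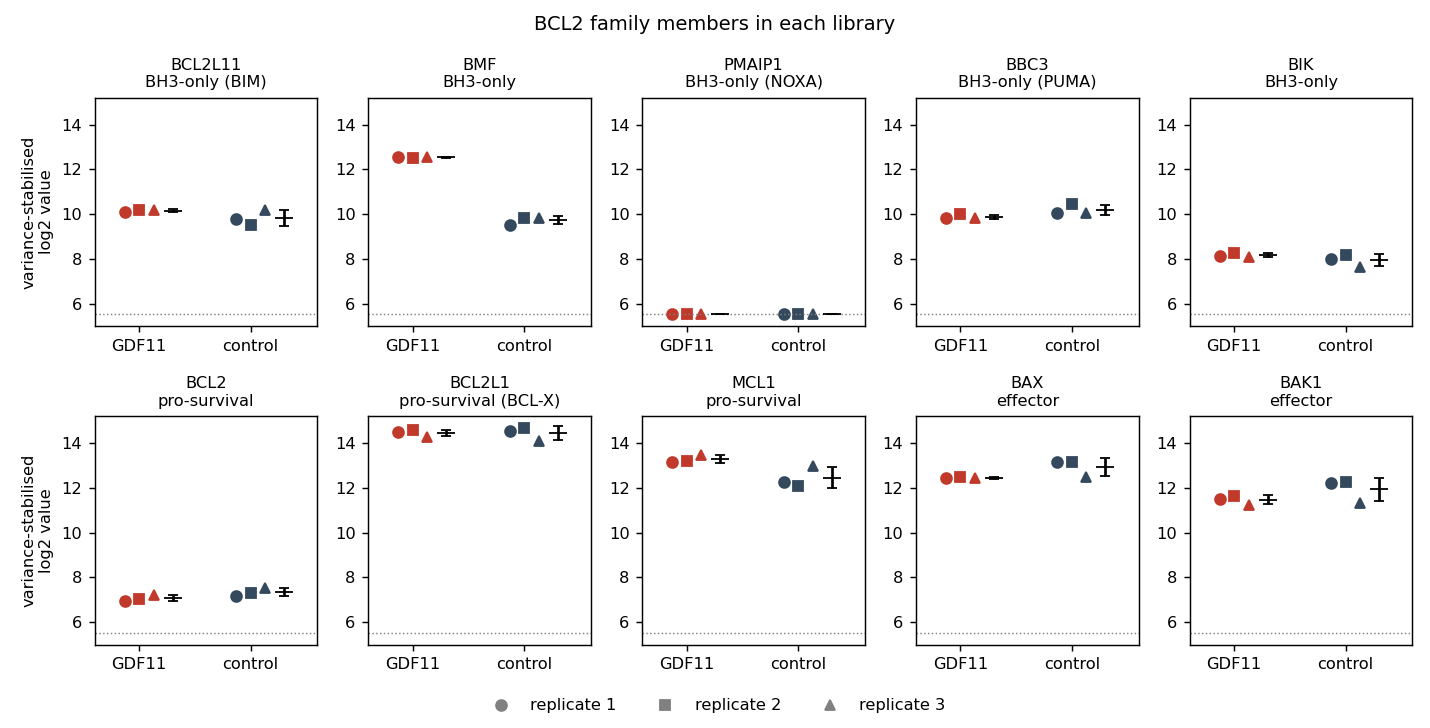
Variance-stabilised log2 values of the 10 members in the 3 GDF11 libraries (red) and the 3 control libraries (dark blue), with the marker shape giving the replicate number, black dashes and bars the mean and SD of 3 libraries, and the dotted line the value without reads. BMF is separated widely between the groups, MCL1 narrowly, and control replicate 3 (dark triangle) sits at the level of the GDF11 libraries for BCL2L11, BAX and BAK1.

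Among the BH3-only genes, BMF encodes a protein that is bound to the cytoskeleton in healthy cells. It had 5932, 5797 and 5934 normalised reads in GDF11 replicates 1, 2 and 3, against 648, 822 and 819 in control replicates 1, 2 and 3. Every GDF11 library lay far above every control. On the log2 scale BMF stood at 12.55 ± 0.019 with GDF11 and at 9.73 ± 0.176 in controls (mean ± SD, n = 3 each), a difference of 2.82 ± 0.15 (adjusted p = 8.26e-06). It was the 49th largest increase among the tested genes, and 0.278% of them differed more in either direction. BMF remained called in each of the 6 fits that left out 1 library, with differences from 2.72 to 2.87.

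BMF-AS1, a long noncoding RNA gene on the opposite strand that overlaps BMF, was looked up after its values were seen. It had 27.9, 23.4 and 20.1 normalised reads in GDF11 replicates 1, 2 and 3, against 5.51, 2.41 and 0.96 in the controls. Its controls averaged below the cutoff on low values, so BMF-AS1 entered the fit only through its GDF11 libraries. Its difference, 0.67 ± 0.11 on the compressed low end of the log2 scale, is therefore described and not counted as a test result. The library kit keeps strand, but whether the counting used it was not stated in the labels, so reads of BMF and BMF-AS1 cannot be told apart with certainty. The reads of BMF-AS1 are few beside those of BMF. The same limit holds for other members that overlap genes on the opposite strand. MIR4435-2HG overlaps BCL2L11 and had 2184 to 3861 normalised reads over the 6 libraries, more than BCL2L11 in each. ADAMTSL4 overlaps MCL1 (713 to 1165) and ABALON overlaps BCL2L1 (135 to 374). None of them was called (adjusted p = 0.957, 0.0695 and 0.842 by limma).

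BCL2L11 (BIM) can activate BAX and BAK1 directly and binds the pro-survival proteins as well. It had 999.6, 1082 and 1075 normalised reads with GDF11, against 784, 637 and 1087 in controls. The groups overlapped, because control replicate 3 had the highest value of the 6 libraries while the other controls had the lowest. The difference of 0.33 ± 0.19 did not pass the test (adjusted p = 0.240, 95% interval -0.10 to 0.76). Without control replicate 3 it was 0.52 ± 0.14 and was called (adjusted p = 0.0160). Adjusted for the RNA integrity number it was -0.14 (adjusted p = 0.750).

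BBC3 (PUMA), the BH3-only gene best known as a p53 target, had 825, 932 and 808 normalised reads with GDF11, against 989.7, 1323 and 961 in controls. The groups did not overlap, but GDF11 replicate 2 lay just below control replicate 3. The difference of -0.31 ± 0.16 was not called (adjusted p = 0.203, 95% interval -0.69 to 0.06). No fit that left out 1 library called it either, with adjusted p from 0.0751 to 0.477.

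BIK, which encodes a BH3-only protein of the endoplasmic reticulum, had 195, 227 and 189 normalised reads with GDF11, against 175, 208 and 118 in controls. The groups overlapped, and control replicate 3 was the lowest library. The difference was 0.22 ± 0.17 (adjusted p = 0.387, 95% interval -0.17 to 0.61). It was 0.064 without control replicate 3 and 0.57 when adjusted for RNA integrity, and was called in neither fit (adjusted p = 0.753 and 0.149). PMAIP1 (NOXA), whose protein binds MCL1 with preference, was listed at 0 in the 6 libraries and was not tested. Whether these cells lack its RNA or the quantification missed it cannot be read from the table.

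Among the pro-survival genes, MCL1, which encodes a short-lived guardian of BAK1, had 9013, 9477 and 11443 normalised reads in GDF11 replicates 1, 2 and 3, against 4810, 4318 and 8013 in control replicates 1, 2 and 3. The groups did not overlap, with control replicate 3 between the other controls and the GDF11 libraries. MCL1 stood at 13.29 ± 0.18 with GDF11 and at 12.45 ± 0.469 in controls (mean ± SD, n = 3 each), a difference of 0.84 ± 0.24 (adjusted p = 0.0334). This call ended in 5 of the 6 fits that left out 1 library, where the difference stood at 0.91 without GDF11 replicate 1, 0.87 without GDF11 replicate 2, 0.74 without GDF11 replicate 3, 0.74 without control replicate 1 and 0.67 without control replicate 2 (adjusted p from 0.0716 to 0.125). Without control replicate 3 it was 1.11 ± 0.14 (adjusted p = 0.000490), and adjusted for the RNA integrity number it was 0.14 (adjusted p = 0.720).

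BCL2L1, from which BCL-XL is made, had 23063, 24505 and 19905 normalised reads with GDF11, against 24186, 26027 and 17499 in controls. The GDF11 values all lay within the range of the controls, with control replicate 3 the lowest library. The difference was 0.01 ± 0.19 (adjusted p = 0.976, 95% interval -0.43 to 0.45). BCL2, the founding member of the family, had 49.0, 55.5 and 70.4 normalised reads with GDF11, against 66.7, 79.3 and 106 in controls. The groups overlapped, and the difference of -0.27 ± 0.14 was not called (adjusted p = 0.198, 95% interval -0.60 to 0.05). At these low values the scale is compressed and keeps 0.472 of a true log2 change at a value of 7, and the reads of GDF11 libraries averaged 0.694 of those of controls.

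Of the effector genes, BAX had 5423, 5728 and 5427 normalised reads in GDF11 replicates 1, 2 and 3, against 9075, 9063 and 5630 in control replicates 1, 2 and 3. The 3 GDF11 libraries and control replicate 3 lay together, well below control replicates 1 and 2. The difference over all libraries was -0.48 ± 0.20 (adjusted p = 0.119, 95% interval -0.94 to -0.02). Without control replicate 3 it was -0.71 ± 0.11 and was called (adjusted p = 0.00126).

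BAK1 showed the same arrangement of libraries, with 2784, 3148 and 2359 normalised reads with GDF11, against 4734, 4818 and 2518 in controls. Control replicate 3 again fell inside the range of the GDF11 libraries. The difference of -0.48 ± 0.25 was not called (adjusted p = 0.200, 95% interval -1.05 to 0.09), and without control replicate 3 it was -0.78 ± 0.14 and was called (adjusted p = 0.00288). Adjusted for the RNA integrity number, the differences were -0.028 for BAX (adjusted p = 0.963) and 0.22 for BAK1 (adjusted p = 0.664).

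**Figure D2:**
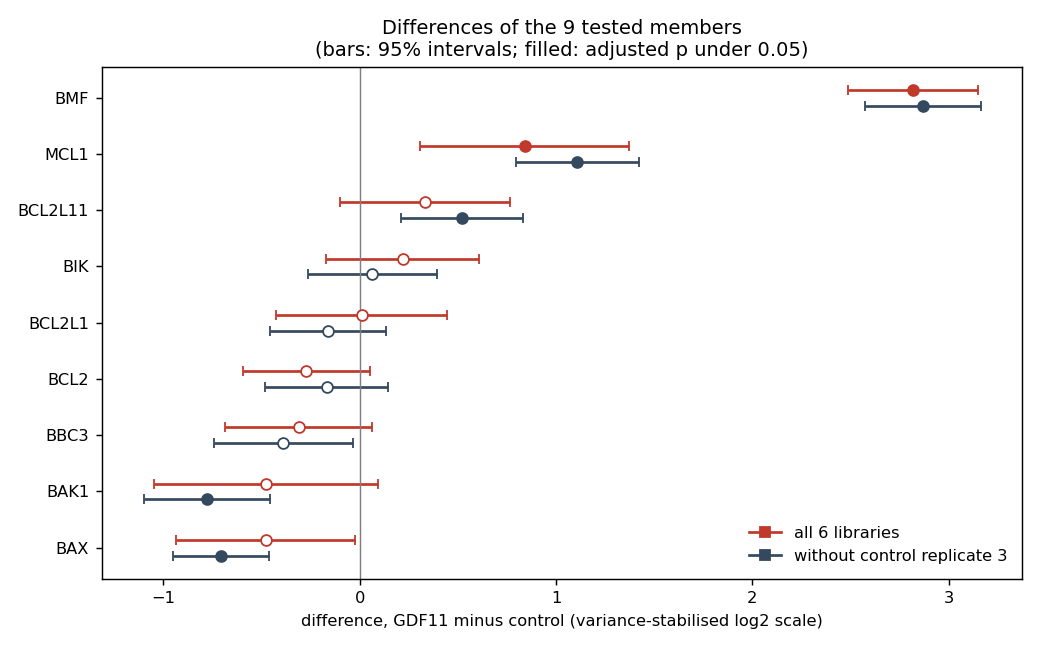
Differences, GDF11 minus control, on the variance-stabilised log2 scale for the 9 tested members, with 95% intervals, from all 6 libraries (red) and without control replicate 3 (dark blue); filled points have an adjusted p under 0.05. BMF stands at 2.82 and 2.87 in these fits, while MCL1, BCL2L11, BAX and BAK1 move away from 0 when control replicate 3 is left out.

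Of the 10 members, 9 were tested, 2 were called higher and 0 lower. Over all tested genes, 11.7% were called higher and 10.8% lower, or 22.4% in either direction, so the share of tested members called, 22.2%, was near that of all genes. At an unadjusted p under 0.05 by limma, 2 tested members were higher and 1 was lower (BAX). The share of all tested genes at that threshold was not counted. The median difference of the 9 members was 0.010, against 0.0056 over all tested genes. The groups did not overlap for 3 tested members (BMF, MCL1 and BBC3), against 40.5% of all tested genes. Without control replicate 3, 3 members were called higher (BMF, MCL1 and BCL2L11) and 2 lower (BAX and BAK1), when 19.6% of all tested genes were called higher and 21.3% lower.

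The place of control replicate 3 was expressed as a position, from 0 at the average of the other controls to 1 at the GDF11 average, for members whose means differ by at least 0.3 on the log2 scale. It lay at 0.052 for BMF, 0.60 for BBC3, 0.72 for MCL1, 0.96 for BAX, 1.08 for BCL2L11 and 1.15 for BAK1. Over the 10047 tested genes that differ as much, the median was 0.54. The average of control replicates 1 and 2 enters both the position and the choice of genes. Scatter in those controls alone thus moves positions above 0. The median therefore does not measure how far control replicate 3 lies toward GDF11. BMF thus kept its full difference against each control, whereas BCL2L11, BAX and BAK1 differed between GDF11 libraries and 2 of the 3 controls. The RNA integrity number moved with these values. It was tested only in the covariate fit above, in which its part and that of GDF11 cannot be told apart.

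**Figure D3:**
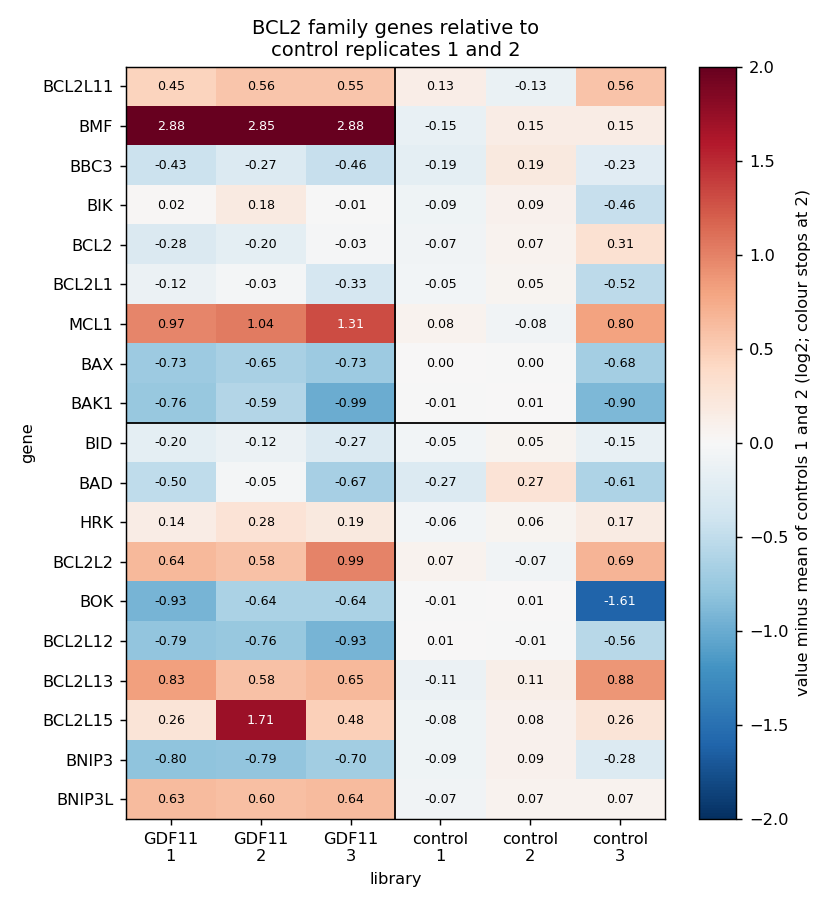
Log2 value of each tested BCL2 family gene in each library minus the mean of control replicates 1 and 2, with the 9 members above the line and 10 other family genes below it; red is higher and blue lower, and colours stop at 2. Control replicate 3 reads 0.15 for BMF, against 2.85 to 2.88 in the GDF11 libraries, and -0.68 for BAX, against -0.73 to -0.65.

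Levels were compared between genes per kilobase of the canonical transcript (GENCODE 44 lifted to GRCh37), which assumes that this transcript is the one present. On this scale BCL2L1 was the highest of the pro-survival genes, at 8738 ± 914 reads per kilobase with GDF11 and 8769 ± 1743 in controls (mean ± SD, n = 3 each). MCL1 followed with 2526 ± 327 with GDF11 and 1447 ± 508 in controls, and BCL2 was close to the bottom with 8.47 ± 1.58 and 12.2 ± 2.93. BAX had 6951 ± 220 reads per kilobase with GDF11 and 9966 ± 2498 in controls, and BAK1 had 1273 ± 182 and 1854 ± 601. Within each control BAX lay above BCL2L1, by 1.21, 1.13 and 1.04 times in control replicates 1, 2 and 3, although their ranges over the controls overlapped. In each GDF11 library BCL2L1 lay above BAX, by 1.31, 1.32 and 1.13 times in replicates 1, 2 and 3. This order rests on the transcript lengths used and was not tested.

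The tested BH3-only members lay below BCL2L1, MCL1, BAX and BAK1 in controls, and above BCL2. Of the BH3-only genes outside the members, BAD had 1336 ± 449 reads per kilobase in controls and overlapped MCL1 and BAK1 in range. HRK had 1.71 ± 0.593, below BCL2. In controls BBC3 had 591 ± 109 reads per kilobase, BIK 176 ± 47.6, BCL2L11 164 ± 45.0 and BMF 163 ± 21.2 (mean ± SD, n = 3), and the last 3 overlapped in range. With GDF11, BMF had 1255 ± 16.7 reads per kilobase, above BBC3 with 463 ± 36.5, BIK with 214 ± 21.3 and BCL2L11 with 206 ± 8.95, and inside the range of BAK1. BAD had 1131 ± 284 with GDF11, and its range took in that of BMF.

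The make-up of the BH3-only class differed accordingly. With BID, BAD and HRK, the other BH3-only genes that were looked up, as part of the sum, BMF made up 33.3%, 28.5% and 34.7% of the summed reads per kilobase in GDF11 replicates 1, 2 and 3, against 4.64%, 4.55% and 6.55% in control replicates 1, 2 and 3. BAD made up 27.1%, 33.4% and 25.0% in GDF11 replicates 1, 2 and 3, above BMF in replicate 2. In control replicates 1, 2 and 3 BAD made up 41.4%, 47.5% and 35.6%, the largest share in each. PMAIP1 adds nothing to the sum, being listed at 0. If the quantification missed its RNA, the sum would be higher and the shares of the other BH3-only genes lower. The sum itself was 3798, 4340 and 3647 reads per kilobase with GDF11, against 2974, 3851 and 2664 in controls, and overlapped between the groups. Among the pro-survival genes, MCL1 made up 19.9%, 19.8% and 26.5% with GDF11, against 11.3%, 9.64% and 22.4% in controls, so that control replicate 3 lay within the GDF11 range. BCL2L1 held 70.8% to 78.4% of the pro-survival sum with GDF11 and 75.0% to 89.2% in controls. These shares are descriptions and were not tested.

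**Figure D4:**
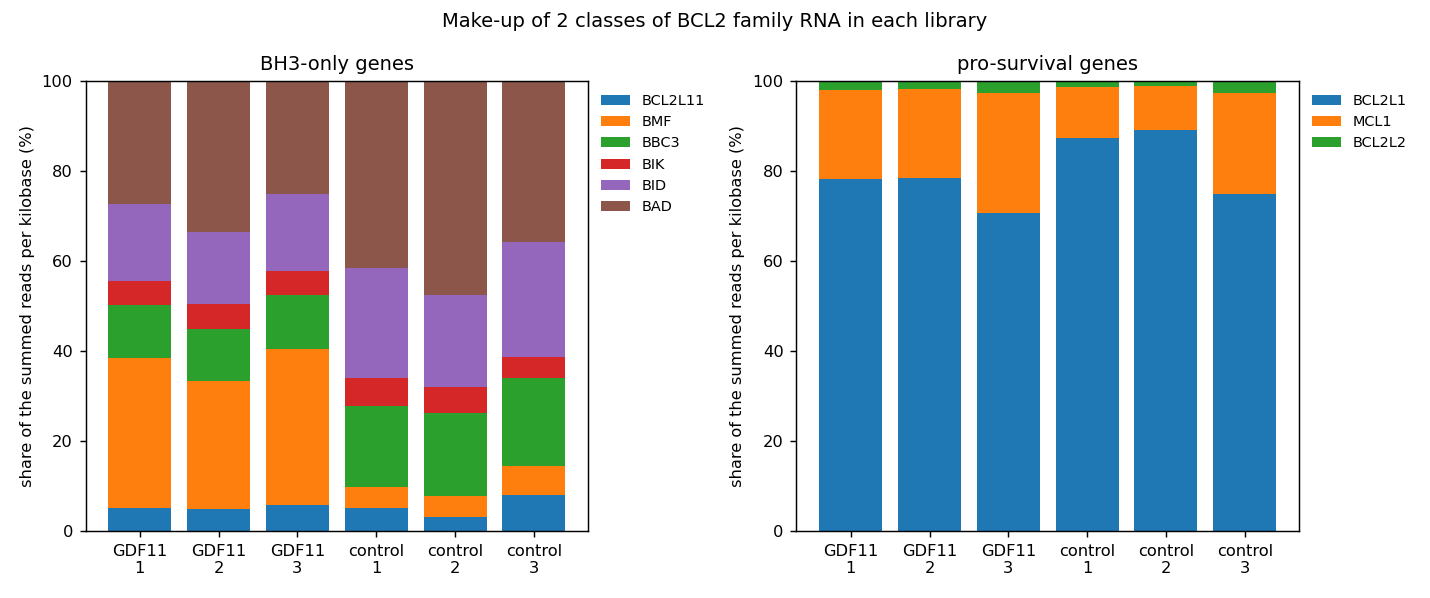
Share of each gene in the summed reads per kilobase of 2 classes in each library, with GDF11 libraries left of controls; genes under 1% in each library are left out. BMF (orange, left panel) takes 28.5% to 34.7% of the BH3-only sum in GDF11 libraries, against 4.55% to 6.55% in controls, and BCL2L1 (blue, right panel) holds most of the pro-survival sum in each library.

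Of 13 other genes of the family, 10 were tested, 1 rose, 2 fell and 7 were not called, with a median difference of 0.0006. The share called was 30.0%, or 3 of 10 genes, against 22.4% of all tested genes. BCL2A1, BCL2L10 and BCL2L14 were not tested because of low values. BNIP3L, which encodes a mitophagy receptor with a BH3-like stretch, had 5360, 5245 and 5374 normalised reads with GDF11, against 3269, 3591 and 3611 in controls, and rose by 0.60 ± 0.13 (adjusted p = 0.0135). BNIP3, its close relative, fell by 0.67 ± 0.15 (adjusted p = 0.0142), with 6570, 6612 and 7068 normalised reads with GDF11, against 10815, 12291 and 9506 in controls. The relatives thus moved in opposite directions, with no overlap between the groups for either. BCL2L12, an atypical member, fell by 0.64 ± 0.18 (adjusted p = 0.0371).

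These 3 calls ended when single libraries were left out. BNIP3L (0.55 to 0.62) and BNIP3 (-0.77 to -0.58) remained called only without control replicate 2 or 3, and BCL2L12 (-0.82 to -0.54) only without control replicate 3. Adjusted for RNA integrity, none of them was called, with differences of 0.57, -0.49 and -0.21 (adjusted p = 0.0687, 0.145 and 0.579). BID, BAD and HRK, BH3-only genes like the members above, were not called, with differences of -0.15 ± 0.14, -0.20 ± 0.25 and 0.15 ± 0.10. BOK, an effector relative of BAX, had 5779, 7090 and 7092 normalised reads with GDF11, against 11003, 11154 and 3575 in controls, and was not called (-0.20 ± 0.39, adjusted p = 0.745). Control replicate 3 had the lowest BOK value and the other controls the highest. Without control replicate 3 the difference was -0.73 ± 0.13 and was called (adjusted p = 0.00259), with library weights it was called at -0.69, and adjusted for RNA integrity it was 0.76 (adjusted p = 0.384).

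Downstream and at the death receptors, 24 genes were tested (caspases, apoptosome, inhibitor of apoptosis and receptor genes). By limma 0 rose, 2 fell and 22 were not called, with a median difference of -0.010. The share called was 8.33%, against 22.4% of all tested genes. At an unadjusted p under 0.05, 4 were higher and 2 lower, and the share of all tested genes at that threshold was not counted. TNFSF10, which encodes the death ligand TRAIL, had 133, 152 and 133 normalised reads with GDF11, against 462, 501 and 505 in controls, and fell by 1.38 ± 0.14 (adjusted p = 0.000215). BIRC5, for survivin, an inhibitor of apoptosis family protein that also acts in mitosis, had 5332, 5267 and 4754 normalised reads with GDF11, against 11185, 13396 and 9345 in controls, and fell by 1.12 ± 0.17 (adjusted p = 0.00207). In both, every GDF11 library lay below every control, and both remained called in each fit that left out 1 library. Without control replicate 3, 6 of these genes were called higher, or 25.0%, against 19.6% of all tested genes. In that fit 3 were called lower, or 12.5%, against 21.3% of all tested genes.

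Of 27 genes listed as regulators of BCL2 family genes, 26 were tested, 6 rose, 4 fell and 16 were not called. Their median difference was -0.0029, and TP63 was not tested. The list also holds CDKN1A, a p53 target, so its counts are not of genes acting on the family alone. The share called, 38.5%, compares with 22.4% of all tested genes. GADD45B, a stress gene and TGF-beta target, had 1923, 1995 and 1998 normalised reads with GDF11, against 140, 231 and 451 in controls, and rose by 2.62 ± 0.28 (adjusted p = 0.000336). CDKN1A, the p53 target that encodes the cell cycle inhibitor p21, rose by 1.01 ± 0.16 (adjusted p = 0.00242), and EGR1, an immediate early factor, rose by 0.99 ± 0.16 (adjusted p = 0.00284). E2F1, a cell cycle factor, fell by 1.37 ± 0.22 (adjusted p = 0.00282). All 4 remained called in each fit that left out 1 library, and E2F1 was not called when adjusted for RNA integrity (-0.75, adjusted p = 0.0545).

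Others of this list are named here after their values were seen. FOXO1, whose protein can activate BCL2L11, rose by 0.87 ± 0.17 (adjusted p = 0.00803), and TP73, a p53 relative that can activate BBC3, fell by 1.13 ± 0.23 (adjusted p = 0.00859). Both remained called in each fit that left out 1 library, and neither was called when adjusted for RNA integrity (0.46 and -0.44, adjusted p = 0.162 and 0.244). HIF1A and NFKB1 were also called higher (1.26 and 0.69, adjusted p = 0.0184 and 0.0392), and DAPK1 and MYC lower (-1.21 and -0.81, adjusted p = 0.0388 and 0.0213). These 4 calls ended when single libraries were left out. HIF1A remained called in 3 of the 6 fits that left out 1 library (without GDF11 replicate 1 or 2 or control replicate 3), NFKB1 in 1 (without control replicate 3), and DAPK1 and MYC in 2 each (without control replicate 1 or 3). Over those fits the differences ran from 0.98 to 1.55 for HIF1A, 0.55 to 0.92 for NFKB1, -1.60 to -0.79 for DAPK1 and -1.004 to -0.61 for MYC. Adjusted for RNA integrity, HIF1A stood at 0.34 (adjusted p = 0.496), NFKB1 at 0.21 (adjusted p = 0.630) and DAPK1 at -1.82 (adjusted p = 0.0635), none of them called, and MYC at -1.22 (adjusted p = 0.0195). MYC was not called after quantile normalization (-0.70), nor NFKB1 without a filter on low values, nor DAPK1 with library weights (-0.60).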

How the data were processed

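The authors deposited 1 table of variance-stabilised log2 values for 60240 Ensembl genes in 6 libraries. The submitters' processing notes name GRCh38, Trimmomatic, DESeq2 and Salmon 1.2.1; per the labels' protocols, 75-base single reads were aligned with STAR 2.6 to hg19. The route to the table was not given in the sources used here. Depth was inferred: 71.4% to 74.5% of low values (up to 20 reads) were whole reads within 0.01, so no count test was run. The labels name a MiSeq, whose runs usually yield fewer reads than this depth.

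Symbols matched 58349 IDs (96.9%). Genes with a mean at least 0.5 above the lowest value (18723) were fitted with limma 3.58.1 in R 4.3.3 (mean trend, two-sided, no covariate), checked on simulated data. Normalised reads come from inverting the variance-stabilising curve; their ratios are of group means. The members, lists and tests were chosen with earlier results of these data known. All members were named, up to 4 called genes of each list by p, and others as stated. Proteins are not shown. Alternatives changed the filter, normalization, variance prior, library weights, covariate, replicate block, scale, threshold and libraries used.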

Additional observations from a re-analysis of the deposited data

How the results depend on the processing

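BMF was called higher under all 16 alternatives, between 2.72 and 2.96. BBC3, BIK and BCL2 were called under none of them and kept their direction, and BCL2L1 was called under none. Adjusted for RNA integrity, 1 member was called higher, BCL2L11 stood at -0.14, MCL1 at 0.14 and BAK1 at 0.22; of the other family genes 0 were higher and 0 lower, and of the regulators 3 higher and 1 lower (all tested genes: 6.14% higher, 3.85% lower). At an adjusted p under 0.01, 1 member was higher, MCL1 at 0.84 no longer passed, 0 other family genes were higher and 0 lower, and 2 regulators lower (all genes: 6.25% and 4.22%). With library weights, 2 members were lower (BAX at -0.67, BAK1 at -0.68), BCL2L11 was called at 0.38 and BCL2L1 stood at -0.064; 3 other family genes were higher, 6 caspase and receptor genes higher and 5 lower, and 11 regulators higher and 8 lower (all genes: 23.9% and 24.3%). With the replicate block, BAX and BAK1 were called lower (both -0.48; 2 members lower), with 3 other family genes higher, 2 caspase and receptor genes higher and 4 lower, and 7 regulators lower (all genes: 16.8% and 17.7%). Same-numbered libraries deviated together in replicates 2 and 3 (correlations 0.38 and 0.48) but not in replicate 1 (-0.088). Libraries of different numbers were not compared in this way, so these values cannot decide whether the numbers are pairs. The main fit did not take them as pairs. Without a filter, 1 other family gene was lower (all genes: 5.15%). Leaving out each library in turn gave 1 to 3 members higher and 0 to 2 lower, 0 to 3 other family genes higher and 0 to 3 lower, 0 to 6 caspase and receptor genes higher and 2 to 3 lower, and 4 to 10 regulators higher and 2 to 9 lower, with 7.31% to 19.6% of all genes higher and 5.06% to 21.3% lower. Over those fits BCL2L11 ranged from 0.17 to 0.52, BCL2L1 from -0.16 to 0.12, MCL1 from 0.67 to 1.11, BAX from -0.71 to -0.37 and BAK1 from -0.78 to -0.32. PMAIP1 gave no value under any setting. With 3 libraries a group, the intervals above limit what the members not called can show.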
